A study of Mus musculus with 6 samples.

Results

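Basement membranes are thin sheets of extracellular matrix, and the genes described here encode their main building blocks together with the matrix protein Sparc. The 9 genes were taken by symbol from the deposited gene table: Lama1, Lamb1, Lamc1, Col4a1, Col4a2, Nid1, Nid2, Hspg2 and Sparc. All 9 had a row among its 19713 genes, and all 9 were among the 15287 genes with enough reads to be tested. Expression was measured by RNA sequencing in 6 libraries of mouse embryonic stem cells of the C57Bl/6 strain, 2 per genotype, numbered replicate 1 and replicate 2. WT cells carry normal Thap1. C54Y cells are homozygous for a missense change in THAP1, a zinc finger transcription factor. KO cells, labelled THAP1 -/-, lack exon 2 of Thap1. All groups grew with serum and LIF on irradiated mouse fibroblasts, and whether these feeder cells were removed before extraction is not given in the sources used here. Nor do the labels say whether the libraries of a genotype came from separate clones or cultures, so the p-values measure only the spread between these samples.

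Laminin forms the first network of a basement membrane. Its founding embryonic form, laminin-111, is a trimer of the chains encoded by Lama1, Lamb1 and Lamc1. Type IV collagen, built from the products of Col4a1 and Col4a2, adds a covalently bonded second network, nidogens and the heparan sulfate proteoglycan perlecan (Hspg2) connect the networks, and the calcium- and collagen-binding glycoprotein SPARC accompanies them. In the early mouse embryo, parietal endoderm secretes these proteins in bulk into Reichert's membrane, and primitive endoderm cells arising in stem cell cultures make them too. None of the 9 is specific to that lineage. Fibroblasts and stem cells themselves transcribe several of them.

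The members fell into 3 patterns. In 4 of the 9 (Lama1, Lamb1, Col4a1 and Col4a2), both mutants lay below WT in both replicates, as did 19.3% of all genes tested. In 2 (Nid1 and Nid2), both mutants lay above WT in both replicates, against 23.4% of all genes. In the remaining 3 (Lamc1, Hspg2 and Sparc), both mutants lay below WT in replicate 1 and above it in replicate 2, an arrangement found in 4.22% of all genes. Arrangements in which both mutants changed side between the replicates, in either order, made up 12.6% of all genes. Of the laminin chains, Lama1 and Lamb1 shared a pattern and Lamc1 fell into another, and the linkers Nid1 and Hspg2 differed from each other. These patterns were chosen after the values were seen and were not tested.

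**Figure D1:**
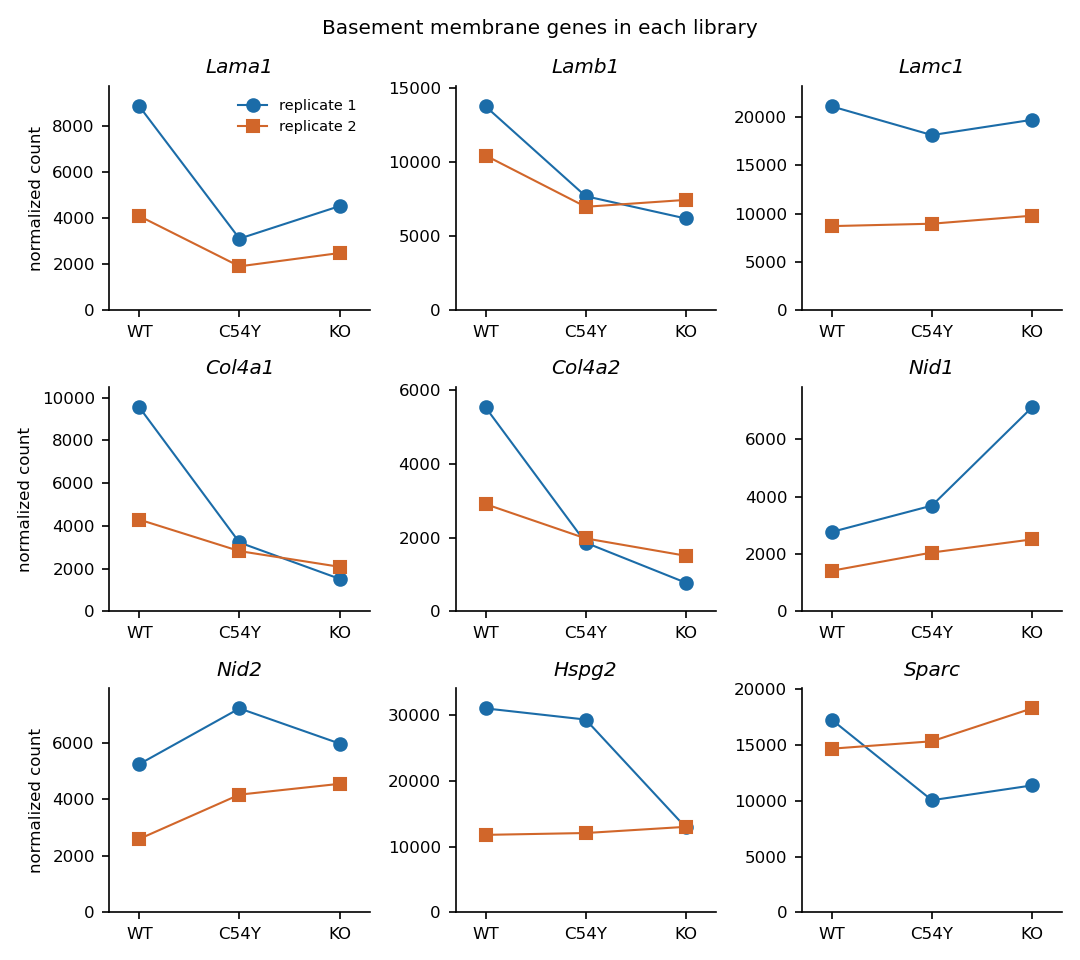
Normalized counts (vertical axis, from 0, scaled per panel) of the 9 basement membrane genes in WT, C54Y and KO cells (horizontal axis); circles joined by a blue line are the libraries of replicate 1, and squares joined by an orange line those of replicate 2. Lama1, Lamb1, Col4a1 and Col4a2 are highest in WT within each replicate, Nid1 and Nid2 are lowest in WT, and Hspg2 is low in KO replicate 1 but level across the genotypes in replicate 2.

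A normalized count is the number of reads of a gene divided by 1 scaling factor per library, and it compares libraries for a given gene. Depth ranged from 31774656 to 46772996 reads per library. The 2 replicate numbers differed far more than the genotypes did: 64.9% of tested genes were called between replicate 2 and replicate 1. The test used below therefore includes the replicate number as a block (limma on log2 of the normalized count plus 2, Benjamini-Hochberg adjustment over all genes tested, threshold 0.05), which compares mutant and WT within a replicate. Without the block, limma called 0 of 9 members and 0 genes in any comparison of genotypes, with 1049 genes (6.86%) at an unadjusted p under 0.05 in KO against WT, 252 (1.65%) in C54Y against WT and 207 (1.35%) in KO against C54Y. In bulk RNA, fewer cells of a type and less RNA per cell cannot be told apart, which holds for every result here.

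With the block, 5 of the 9 members passed the threshold in KO, 4 lower and 1 higher, where 7.41% of all tested genes were called lower, 8.9% higher and 16.3% in either direction. In C54Y, 1 of 9 passed, and it was lower, where 0.399% of all genes were called lower and 1.36% in either direction. The median log2 difference over the 9 members was -0.56 in KO and -0.36 in C54Y, beside 0.028 and -0.0021 over all tested genes. By replicate, the KO median of the members was -0.97 in replicate 1 and 0.14 in replicate 2, and that of C54Y was -0.78 and 0.034.

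The separation of the libraries, read without a model, picked out partly different members. Both KO libraries lay below both WT libraries for Lamb1, Col4a1 and Col4a2, 3 of the 9 members, and above them for none, while 13.6% of all tested genes separated downward, 13.6% upward and 27.2% in either direction. Lama1 and Nid1, called in KO, overlapped WT. Both C54Y libraries lay below both WT libraries for Lama1, Lamb1, Col4a1 and Col4a2, 4 of the 9, and above them for none, beside 8.69% of all genes downward, 9.3% upward and 18% in either direction.

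Col4a1 and Col4a2, the genes of the α1 and α2 chains of type IV collagen, showed the largest falls among the members in KO. They lie head to head on mouse chromosome 8, transcribed in opposite directions, and in RefSeq on GRCm38.p6 their annotated first 22 bases overlap. That stretch is shown because the genes start from the same short piece of DNA and had close values in each comparison of genotypes. Without a strand setting, reads within the overlap could not be assigned to either gene. It reads as follows on the plus strand at chr8:11312801-11312830, with the bases between the 2 starts in capitals (Col4a2 begins at the first capital and runs to the right, Col4a1 begins at the last capital and runs to the left on the minus strand).
Col4a1 and Col4a2 starts: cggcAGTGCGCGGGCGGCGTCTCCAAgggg

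The normalized count of Col4a1 was 9542 in WT replicate 1 and 4293 in WT replicate 2. In the same order of replicates it was 3224 and 2821 in C54Y cells and 1524 and 2086 in KO cells. No mutant library reached the lower WT library, and both KO libraries were below both C54Y libraries. Col4a1 fell in KO by -1.84 ± 0.30 (log2 fold change ± SE, adjusted p = 0.00553), or 3.59-fold. Within replicate 1 the KO library held 16.0% of the WT level and within replicate 2 it held 48.6%, so the size of the fall differed between replicates while its direction did not. In C54Y the difference was -1.09 ± 0.30 and did not pass (adjusted p = 0.155), with 33.8% and 65.7% of the WT level. With WT replicate 2 left out the difference was -1.73, but WT is then 1 library, the higher of its 2.

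Col4a2 followed Col4a1 closely. The WT libraries held 5533 and 2909 normalized counts, the C54Y libraries 1864 and 1979.7, and the KO libraries 779 and 1509.6. As for Col4a1, the genotypes did not overlap. It fell in KO by -1.89 ± 0.36 (adjusted p = 0.0111), to 14.1% of WT in replicate 1 and 51.9% in replicate 2. The difference in C54Y was -1.06 ± 0.36 (adjusted p = 0.251), or -1.79 without WT replicate 2, where WT is 1 library. Across the 6 libraries the log2 values of the 2 collagen genes had a Pearson r of 0.98, a description over libraries that share 2 replicates and 3 genotypes. Scaled to exon length, Col4a1 stood at 1.53 times Col4a2 in WT replicate 1 and 1.31 times in WT replicate 2, and the ratio stayed between 1.23 and 1.74 in all 6 libraries. Without KO replicate 1 neither gene was called, at -1.28 for Col4a1 (adjusted p = 0.156) and -1.20 for Col4a2 (adjusted p = 0.208). Col4a2 also missed the threshold without C54Y replicate 1 (0.125) or C54Y replicate 2 (0.0917), with its log2 fold change still -1.89.

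Lama1 encodes the α1 chain, the chain that gives laminin-111 its receptor-binding end. It had 8863 and 4097 normalized counts in the WT libraries, 3118 and 1915 in those of C54Y, and 4531 and 2493 in those of KO. Both C54Y libraries were below both WT libraries, while the KO libraries overlapped WT because WT replicate 2 was lower than KO replicate 1. Within each replicate the order was the same, with WT highest and C54Y lowest. Lama1 fell in C54Y by -1.30 ± 0.15 (adjusted p = 0.00492) and ranked 42 among all tested genes by p. It was the single member called in that comparison and the call held with each of the 6 libraries left out. In KO it fell by -0.84 ± 0.15 (adjusted p = 0.00768), and with WT replicate 1 left out the adjusted p was 0.0563. The difference of 0.46 ± 0.15 between KO and C54Y was not called (adjusted p = 0.207).

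Lamb1 encodes the β1 chain, which pairs with the α1 and γ1 chains. Normalized counts of 13774 and 10456 in WT compared with 7711 and 6997 for C54Y and 6206 and 7461 for KO. All 4 mutant libraries were below both WT libraries. It fell in KO by -0.82 ± 0.17 (adjusted p = 0.0128), and with WT replicate 1 left out the adjusted p was 0.0531. In C54Y the difference was of similar size, -0.71 ± 0.17, and did not pass (adjusted p = 0.0914). With the block and 1 library left out, which leaves 1 in its genotype, it ran from -0.94 to -0.48.

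Lamc1 encodes the γ1 chain, which is shared by most laminins and not only by laminin-111. Replicate 1 held 21115 normalized counts in WT, 18145 in C54Y and 19726 in KO, and replicate 2 held 8726, 8974 and 9802. The libraries separated by replicate and not by genotype. The difference in KO was 0.035 ± 0.13 (adjusted p = 0.886), with the opposite sign (-0.053) when TMM factors were used for scaling, and in C54Y it was -0.089 ± 0.13 (adjusted p = 0.872). The chains of laminin-111 can be set against each other in each library. Per kb of exon, Lama1 stood at 0.359 and 0.401 of Lamc1 in WT, at 0.147 and 0.182 in C54Y, and at 0.196 and 0.217 in KO, with no overlap between WT and either mutant. Lamb1 stood at 0.544 and 0.9996 of Lamc1 in WT, against 0.354 and 0.650 in C54Y and 0.262 and 0.635 in KO, so the genotypes overlapped across replicates while the mutants were below WT within each. Ratios were described and not tested.

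**Figure D2:**
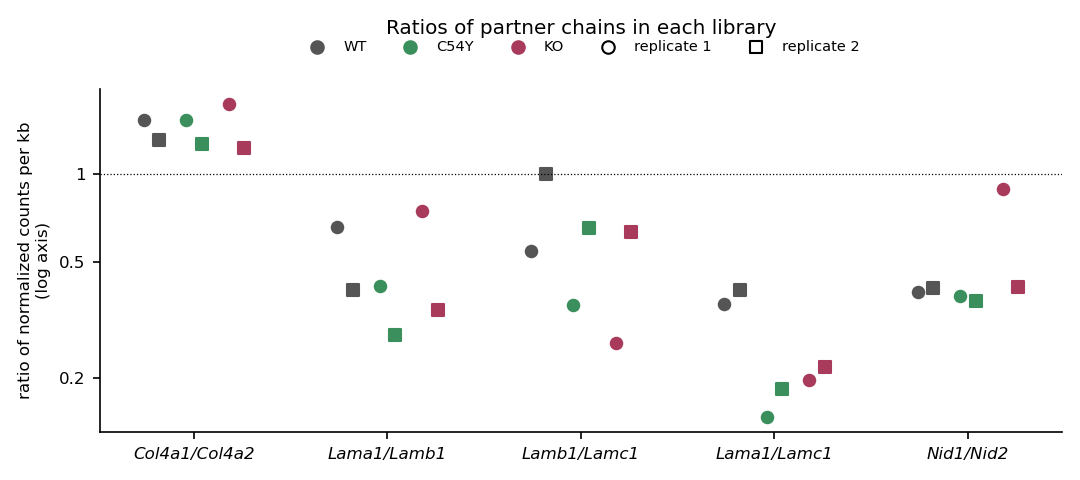
Ratio of normalized counts per kb of exon between partner genes (log axis) in each of the 6 libraries; grey is WT, green C54Y and red KO, circles are replicate 1 and squares replicate 2. Col4a1 over Col4a2 stays between 1.23 and 1.74, Lama1 over Lamc1 is 0.359 and 0.401 in WT and 0.217 or less in the mutants, and Nid1 over Nid2 stands out in KO replicate 1.

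Nidogen-1, encoded by Nid1, binds laminin and type IV collagen and connects their networks. Replicate 1 held 2768 normalized counts in WT, 3684 in C54Y and 7105 in KO, and replicate 2 held 1417, 2051 and 2507. KO replicate 1 was the highest of all libraries, and within each replicate WT was lowest and KO highest, although the groups overlapped across replicates. Nid1 was the member called higher: it rose in KO by 1.09 ± 0.18 (adjusted p = 0.00562), to 257% of WT in replicate 1 and 177% in replicate 2, and the call held with each of the 6 libraries left out. In C54Y the difference was 0.47 ± 0.18 and did not pass (adjusted p = 0.317). With the block and 1 library left out, which leaves 1 in its genotype, it ran from 0.28 to 0.67.

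Nidogen-2, encoded by Nid2, has the same domain architecture and can stand in for nidogen-1. Replicate 1 gave 5244 normalized counts in WT, 7212 in C54Y and 5970.2 in KO, and replicate 2 gave 2599, 4163 and 4545. Every mutant library was above the WT library of its own replicate, although the groups overlapped across replicates. The KO difference of 0.50 ± 0.17 did not pass (adjusted p = 0.079), nor did the C54Y difference of 0.57 ± 0.17 (adjusted p = 0.173). With the block and 1 library left out, which leaves 1 in its genotype, the KO difference ran from 0.24 to 0.75. The C54Y difference ran from 0.36 to 0.78. Per kb of exon, Nid1 stood at 0.367 to 0.411 of Nid2 in 5 of the 6 libraries and at 0.887 in KO replicate 1. The ratio of Nid1 to Lama1 per kb went from 0.436 and 0.482 in WT to 1.65 and 1.49 in C54Y and 2.19 and 1.40 in KO.

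Hspg2 encodes perlecan, whose heparan sulfate chains bind growth factors. In replicate 1 the normalized counts were 31056 for WT, 29356 for C54Y and 12942 for KO, and in replicate 2 they were 11805, 12086 and 13027. The groups overlapped, and a single library stood apart from its replicate: KO replicate 1 held 41.7% of the WT level, while KO replicate 2 held 110% and the C54Y libraries 94.5% and 102%. Hspg2 was not called in KO (-0.56 ± 0.31, adjusted p = 0.261). With KO replicate 2 left out the difference was -1.23, with KO replicate 1 as the only KO library. In C54Y the difference was -0.024 ± 0.31 (adjusted p = 0.987).

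Sparc encodes the SPARC glycoprotein, also called osteonectin. Replicate 1 had 17247 normalized counts in WT, 10043 in C54Y and 11369 in KO, and replicate 2 had 14659, 15321 and 18264. The mutants lay below WT in replicate 1 and above it in replicate 2, with 65.9% and 125% of the WT level in KO and 58.2% and 105% in C54Y. The KO difference of -0.14 ± 0.21 was not called (adjusted p = 0.687). Nor was the C54Y difference of -0.36 ± 0.21 (adjusted p = 0.564). Without WT replicate 2, where WT is 1 library, it was -0.80.

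**Figure D3:**
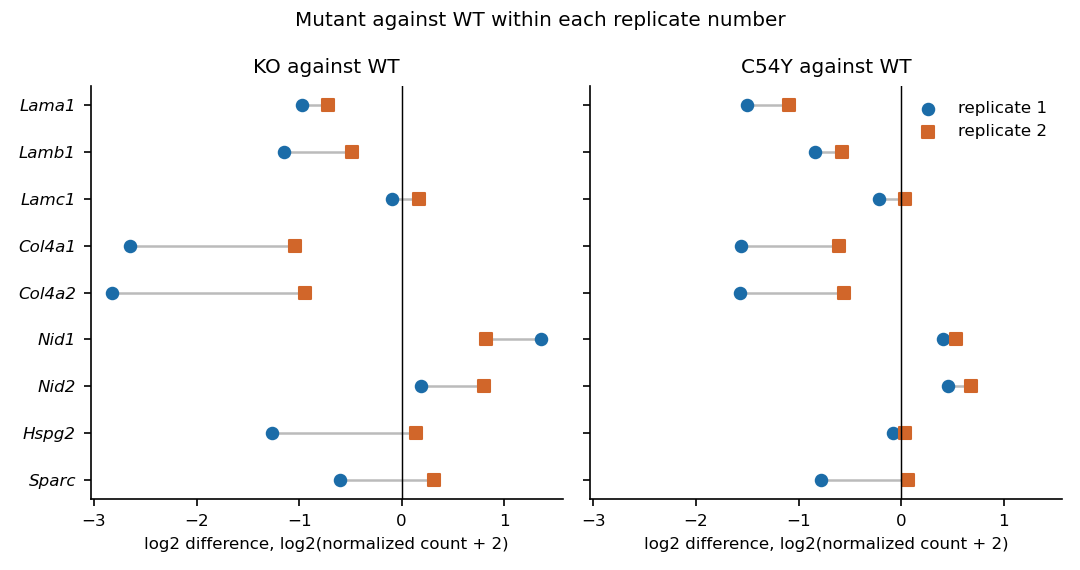
Log2 difference between mutant and WT, on the scale of log2 of the normalized count plus 2, within replicate 1 (blue circles) and within replicate 2 (orange squares) for each basement membrane gene; the left panel shows KO and the right panel C54Y, and the vertical line marks no difference. Both symbols lie left of the line for Lama1, Lamb1, Col4a1 and Col4a2 and right of it for Nid1 and Nid2, while Lamc1, Hspg2 and Sparc cross it.

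Between KO and C54Y, none of the 9 members was called by limma with the block, where 29 genes, or 0.19% of those tested, were. Both collagens, 2 of the 9 members, were lower in both KO libraries than in either C54Y library, and no member was higher, beside 8.84% of all genes lower, 8.64% higher and 17.5% in either direction. Their differences were -0.76 ± 0.30 for Col4a1 (adjusted p = 0.286) and -0.82 ± 0.36 for Col4a2 (adjusted p = 0.324), and that of Nid1 was 0.62 ± 0.18 (adjusted p = 0.167). Comparisons of either mutant with WT use the same WT libraries, so their values stand side by side and are not independent of each other.

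The replicate numbers themselves separated several members. Lamc1 was lower in replicate 2 by -1.10 ± 0.10 (adjusted p = 1.91e-05), Nid1 by -1.10 ± 0.15, Lama1 by -0.89 ± 0.12, Hspg2 by -0.89 ± 0.25 (adjusted p = 0.0148) and Nid2 by -0.73 ± 0.14. These 5 were called lower, where 32.8% of all genes were called lower and 32% higher, and no member was called higher. Lamc1, Nid1 and Nid2 were lower in all 3 libraries of replicate 2 than in any of replicate 1, 3 of the 9 members, and none was higher in all, beside 31.4% of all genes lower, 29.7% higher and 61.1% in either direction. Lamb1 (-0.091), Col4a1 (-0.30), Col4a2 (0.037, or -0.069 with TMM factors) and Sparc (0.35) were not called. The Hspg2 call was lost without WT replicate 2 (adjusted p = 0.226), C54Y replicate 1 (0.154) or C54Y replicate 2 (0.137). Together the 9 genes took 0.369% of reads in WT replicate 1, 0.265% in C54Y replicate 1 and 0.199% in KO replicate 1, but 0.136% to 0.146% in the libraries of replicate 2.

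Levels of different genes can be compared only per length. Per kb of exon in GENCODE M21, Sparc was the most abundant member in every library, with 4212 ± 483 normalized counts per kb in WT (SD, n = 2), 3348 ± 985 in C54Y and 3911 ± 1287 in KO. Lamc1 was second in every library, at 1804 ± 1059 in WT, and in each genotype the Sparc libraries were all above the Lamc1 libraries. In WT the order continued with Hspg2 (1498 ± 951), Lamb1 (1222 ± 237), Col4a1 (927 ± 497), Nid2 (758 ± 361), Lama1 (669 ± 348), Col4a2 (638 ± 280) and Nid1 (301 ± 138). Neighbours from Lamc1 to Col4a2 in that order overlapped between libraries, and Nid1 was below Col4a2 in both. By their means in KO the collagens came last, at 242 ± 53.2 for Col4a1 and 173 ± 78.0 for Col4a2, and Nid1 stood at 692 ± 468. In KO, Lama1, Col4a1 and Col4a2 overlapped as neighbours, and in KO replicate 2 Col4a1 (279) was above Lama1 (258).

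Upstream sequence was matched by symbol in RefSeq on GRCm38.p6 for 6 of the 9 members. Those of Lamb1, a member that fell, Nid1, the one that rose, and Sparc, which was not called, are shown to set the contrasting genes side by side. Each is the 250 bases before the annotated start, on the strand of the gene, at chr12:31265043-31265292 (plus) for Lamb1, chr13:13437352-13437601 (plus) for Nid1 and chr11:55420081-55420330 (minus) for Sparc. Capitals mark TNNNGGCA on either strand, the letters of the core recognised by the THAP1 zinc finger.
Lamb1: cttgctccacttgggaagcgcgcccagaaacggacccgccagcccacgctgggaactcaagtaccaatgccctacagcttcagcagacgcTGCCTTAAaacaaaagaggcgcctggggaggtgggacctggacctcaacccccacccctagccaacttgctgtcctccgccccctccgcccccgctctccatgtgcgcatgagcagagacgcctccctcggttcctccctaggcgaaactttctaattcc
Nid1: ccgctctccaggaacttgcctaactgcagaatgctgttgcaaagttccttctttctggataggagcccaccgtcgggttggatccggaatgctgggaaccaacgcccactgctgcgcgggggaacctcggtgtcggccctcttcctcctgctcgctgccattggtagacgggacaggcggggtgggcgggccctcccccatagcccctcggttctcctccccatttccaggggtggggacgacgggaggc
Sparc: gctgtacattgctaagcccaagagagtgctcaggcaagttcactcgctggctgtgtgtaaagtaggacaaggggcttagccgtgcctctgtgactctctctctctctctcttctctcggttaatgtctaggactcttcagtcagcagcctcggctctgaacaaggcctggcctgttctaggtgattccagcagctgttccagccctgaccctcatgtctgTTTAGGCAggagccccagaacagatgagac

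The core letters were present in 2 of the 6 members' windows. They lie 160 to 153 bases before the start of Lamb1, on the minus strand, and 30 to 23 bases before the start of Sparc, on the plus strand. Of all 32817 windows of this length, 36.4% held such a match. The windows of Col4a1, Col4a2, Nid1 and Hspg2 held none of these letters, which says nothing about binding elsewhere. The GATA motif AGATAA was in 0 of the 6 windows and in 9.99% of all windows, and the SOX motif ACAATG in 0 of 6 and in 10.7%. The SP1 motif GGGCGG was in 4 of 6 (Lamb1, Col4a2, Nid1 and Hspg2, with 5 copies in Hspg2) and in 32.7% of all windows. It also lies within the 22 bases between the starts of Col4a1 and Col4a2 shown above, which are outside both windows. GC content ran from 54% for Sparc to 74.4% for Col4a1, beside a median of 52.4% over all windows. No GGGCGG match overlapped a match of the THAP1 core letters in these windows.

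Most genes listed as primitive endoderm regulators fell in both mutants. Of 10 primitive endoderm regulators, all tested, 9 were called lower in KO and 7 in C54Y, and none higher. Sox7, named after its values were seen, was called in neither (-0.81, adjusted p = 0.114 in KO, and -0.80, adjusted p = 0.329 in C54Y). Beside this list and those below, 7.41% of all tested genes were called lower in KO and 8.9% higher. In C54Y the shares were 0.399% and 0.962%. Gata6, a GATA factor that starts the lineage, had 154 and 169 normalized counts in WT libraries, 35.4 and 22.1 in those of C54Y, and 35.6 and 24.2 in those of KO. It fell by -2.38 ± 0.34 in KO cells (adjusted p = 0.0029) and by -2.44 ± 0.34 in C54Y (adjusted p = 0.0116). Dab2, an endocytic adaptor, fell by -2.79 and -1.79, the forkhead gene Foxq1 by -2.79 and -1.97, and the PDGF receptor gene Pdgfra by -1.83 and -2.05. The list's median was -2.22 in KO and -1.98 in C54Y, with -2.08 and -2.68 in the KO replicates and -2.04 and -1.81 in those of C54Y.

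The label of parietal endoderm was checked against 12 of its markers, 4 of which are also in the list of regulators. In KO 5 fell and 1 rose, and in C54Y 3 fell, with medians of -0.80 and -0.70. By replicate the medians were -1.19 and -0.63 in KO and -0.83 and -0.52 in C54Y. The 3 that fell in C54Y were Gata4, Gata6 and the SRY-box gene Sox17 (-2.72 in KO and -2.55 in C54Y). These 3 are among the shared regulators and also fell in KO, so no marker outside the regulators was called in C54Y. Outside the regulators, the retinol transporter gene Stra6 and the parathyroid hormone receptor gene Pth1r fell in KO (-2.29 and -1.99). Prdm1, a transcriptional repressor, rose (0.96). The KO difference of Pth1r was -3.08 in replicate 1 and -0.89 in replicate 2. Stra6 was low, with 56.8 and 75.9 normalized counts in WT and 6.08 and 21.6 in KO. Thbd, which encodes thrombomodulin, stood at 58.3 and 122 normalized counts in WT and was not called (0.37, adjusted p = 0.394), and Vim was not called either (0.21, adjusted p = 0.334). Stra6, Pth1r, Prdm1, Thbd and Vim were named after their values were seen. Sox17 had 102 and 136 normalized counts in WT and 25.2 and 10.2 in KO. Which cells the members' transcripts came from was not tested.

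Among 12 visceral endoderm markers, 9 were tested and 3 fell in KO: the receptor gene Cubn (-3.84 ± 0.25, adjusted p = 0.000195), its partner Amn (-2.20) and Cited1 (-1.27). Cited1 was at the edge of the threshold (adjusted p = 0.0477), with a KO difference of -2.06 in replicate 1 and -0.47 in replicate 2. Cubn and Amn fell in C54Y too (-2.43 and -1.68). The 3 not tested, Afp, Ttr and Apoa4, which mark mature visceral endoderm, were at 5.98 or fewer normalized counts in all 6 libraries. Apoe, on the same list, ranged from 37391.5 (C54Y replicate 1) to 62839.9 (KO replicate 2) and was not called in either mutant.

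Other basement membrane components moved in both directions. Of 26 listed genes 22 were tested, and in KO 2 were called lower and 1 higher, with a median of -0.50 (-0.68 in replicate 1 and -0.16 in replicate 2). Over all tested genes 16.3% were called in either direction, so these genes were not called more often than others. Frem2 and Fras1, partners in a complex that anchors epithelia to the underlying matrix, fell by -1.52 ± 0.29 (adjusted p = 0.0102) and -2.26 ± 0.51 (adjusted p = 0.0188). Lama3, the α chain of epithelial laminin-332, rose by 1.54 ± 0.24 (adjusted p = 0.00444), from 271 and 162 normalized counts in WT to 862 and 438 in KO, opposite to Lama1. In C54Y the guidance gene Ntn1 was the one called, lower by -0.92 ± 0.18 (adjusted p = 0.0458), and the list's median was -0.11.

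Some receptors for laminin and collagen were lower in KO as well. Of 15 tested, 4 fell, none rose and the median was -0.43. That median hid a gap between the KO libraries: -0.82 (KO replicate 1) against -0.041 (KO replicate 2). Most of the list's shift therefore came from 1 library. The shared integrin subunit gene Itgb1 fell by -0.78 ± 0.13 (adjusted p = 0.00504), from 14956 and 5994 normalized counts in WT to 8477 and 3574 in KO. Its laminin-binding partner Itga3 fell by -1.20 ± 0.28, the collagen-binding partner Itga1 by -1.36 ± 0.38, and Bcam, a receptor for the laminin α5 chain, by -0.85 ± 0.25 at the edge of the threshold (adjusted p = 0.0499). None of the 15 was called in C54Y, where the median was -0.20.

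Genes that mature and secrete collagen showed no common direction. Of 22 tested, 4 fell in KO and 1 rose, with a median of 0.06, and none was called in C54Y. The 4 were Pxdn, which encodes the peroxidase that forms sulfilimine bonds in type IV collagen (-1.53 ± 0.24, adjusted p = 0.00408), the lysyl hydroxylase gene Plod2 (-1.02 ± 0.20), the prolyl hydroxylase subunit gene P4ha2 (-0.85 ± 0.21), and the collagen chaperone gene Serpinh1 (-0.89, adjusted p = 0.0312), the last named after its values were seen. Normalized counts of Pxdn were 2301, 1955 and 597 in WT, C54Y and KO of replicate 1 and 1145, 874 and 526 in those of replicate 2. Crtap, a member of the prolyl 3-hydroxylation complex, rose by 0.59.

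Matrix proteases and their inhibitors were split. Of 14 tested, 4 fell in KO and 2 rose, with none called in C54Y. Mmp9, a gelatinase that cleaves type IV collagen, fell by -2.52 ± 0.30 (adjusted p = 0.00154), from 229 and 136 normalized counts in WT to 30.4 and 28.0 in KO, and the membrane-type protease gene Mmp14 by -1.16 ± 0.20. The inhibitor gene Timp1 rose by 0.88 ± 0.16 (adjusted p = 0.00804). Of 7 relatives of Sparc, 5 were tested and none was called in either mutant by limma with the block. The nearest was Fstl1, a secreted follistatin-like protein gene, at -0.44 ± 0.14 for KO (adjusted p = 0.0698) and -0.52 ± 0.14 for C54Y cells (adjusted p = 0.154).

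**Figure D4:**
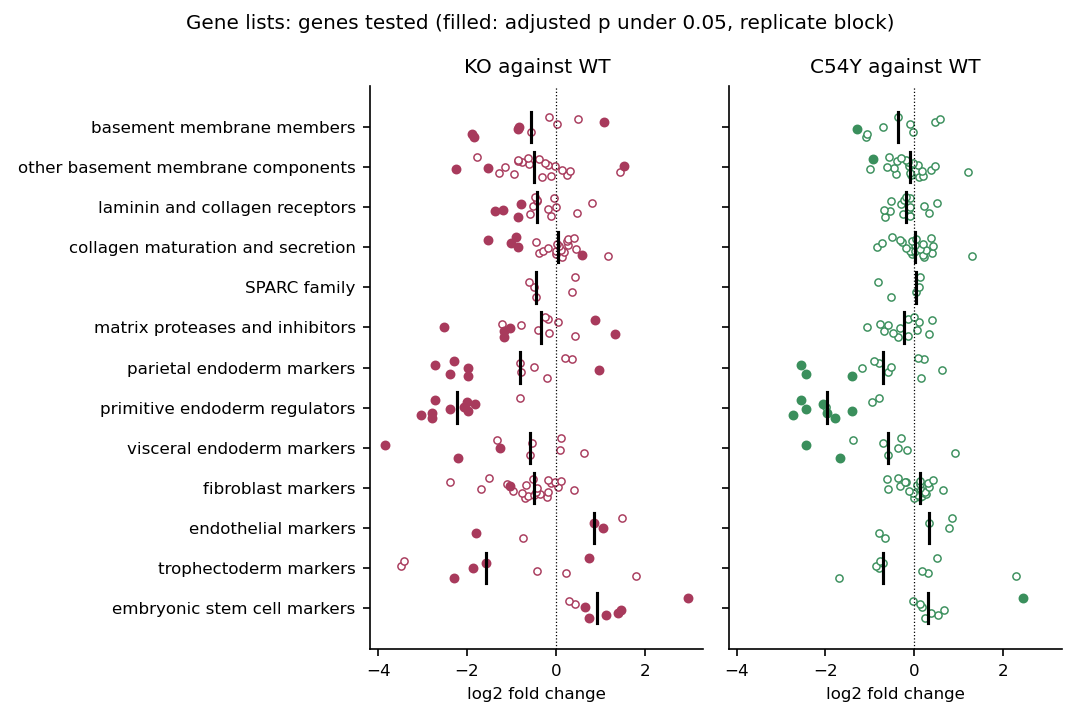
Log2 fold change (horizontal axis, replicate block fit) of every tested gene in the 9 basement membrane genes and 12 further lists, in KO (left) and C54Y (right) against WT; filled points passed an adjusted p of 0.05, open points did not, and the black bar is the list's median. The primitive endoderm regulators lie furthest to the left in both mutants, with medians of -2.22 and -1.98, while the collagen maturation genes centre near 0.

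Fibroblast markers were read beside these results, since feeder cells also make type IV collagen and Sparc. Of 24 markers 23 were tested, 1 was called in KO (Mmp2, -1.03 ± 0.26, adjusted p = 0.0283) and none in C54Y. Their summed normalized counts in replicate 1 were 52389 (WT), 61884 (C54Y) and 35050 (KO), and in replicate 2 they were 65691, 77614 and 74021, so 1 KO library was below WT and the other 3 mutant libraries were above the WT library of their replicate. Without Fn1, which stem cells also express, the sums were 18076, 14652 and 4654 in replicate 1 and 43734, 52016 and 47428 in replicate 2, for WT, C54Y and KO. Counted this way, both mutants were below WT in replicate 1 and above it in replicate 2. For C54Y the replicate 1 direction depended on leaving out Fn1. The lowest sum by far was in KO replicate 1, where the smooth muscle gene Tagln, looked at after its values were seen, had 393 normalized counts against 9022 in WT replicate 1. C54Y replicate 1 had 6106, so Tagln alone made up most of the fall of that library's sum below WT. In replicate 2 Tagln had 6915 in KO and 8172 in WT, and it was not called (adjusted p = 0.332). KO replicate 1 also held the lowest Col4a1, Col4a2 and Lamb1 counts. In replicate 2, both mutants had higher fibroblast sums than WT and lower counts of Col4a1, Col4a2, Lama1 and Lamb1. Lum, at 0 in 5 of 6 libraries, was the marker not tested, while the other 23 had enough reads to be tested. What share of the members' transcripts came from feeder cells was not tested.

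Markers of other cells that make basement membrane moved in several directions. Trophectoderm markers, 9 tested, had 3 lower and 1 higher in KO and a median of -1.56, with -2.25 in replicate 1 and -0.47 in replicate 2. Cdx2 and Hand1, transcription factors of that lineage, fell by -2.30 and -1.87, and Tfap2c rose by 0.74, while none was called in C54Y. Cdx2 was low, with 22.4 and 79.8 normalized counts in WT and 0.87 and 26.7 in KO. The remaining marker called lower was the keratin gene Krt7 (-1.56, adjusted p = 0.038), named after its values were seen. Its KO difference was -2.65 in replicate 1 and -0.47 in replicate 2. The keratin genes Krt8 and Krt18, chosen after their values were seen, had 469 and 339 normalized counts in KO replicate 1 against 15325 and 11525 in WT replicate 1, and 2371 and 2157 in KO replicate 2 against 8319 and 8018 in WT replicate 2. Neither was called in KO (adjusted p = 0.09 for Krt8 and 0.0768 for Krt18). Of 5 tested endothelial markers Pecam1, also expressed by stem cells, rose by 1.06 in KO with Tek (0.86), while Kdr fell (-1.80), and Cdh5 was at 9.7 or fewer counts in all libraries. Stem cell markers rose in KO in 6 of 8 cases, among them Zfp42 by 2.98 ± 0.18 and Esrrb by 1.13 ± 0.11. In C54Y 1 of 8 was called, Zfp42. The part of these shifts in the members' values was not tested.

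Taken over the 6 libraries, the mean of the 9 members (each as log2 of the normalized count plus 2, centred on its own mean) was highest in WT replicate 1, at 0.77, and lowest in C54Y replicate 2, at -0.34. Hspg2 (r = 0.87) and Lama1 (r = 0.85) followed this mean most closely, and Nid1 (r = 0.15) and Sparc (r = 0.06) least. Each member is itself part of this mean, so these r values are not comparable with those of genes outside it. Among 11344 other genes with a mean of at least 100 normalized counts, Mfsd7c (r = 0.98), Emp2 (0.98), Specc1 (0.97), Tnfrsf10b (0.97) and Crim1 (0.96) were among the 6 with the most similar profile. Of these 5, Crim1, which encodes a membrane protein with cysteine-rich repeats, was called in KO (-1.06 ± 0.26, adjusted p = 0.0247), and none was called in C54Y. With 6 libraries that share replicates and genotypes, these correlations are descriptions.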

How the data were processed

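The deposited table holds 1 value per gene and library. It is a signal made by the authors, the normalized count, in which a library's reads are scaled by its own size factor. Per the submitters' processing notes, CASAVA, Trimmomatic, TopHat2 2.1.0, HTSeq and DESeq2 were used with the build mm9. The annotation and strand setting are not given in the sources used here. Of the nonzero values, 100% were whole multiples of their column's smallest step (tolerance 1e-06), so whole reads were recovered. Depth was 31774656 to 46772996 reads per library.

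Genes that reached a normalized count of 10 in 2 or more libraries entered limma 3.58.1 (trend and robust) in R 4.3.3, on log2 of the value plus 2, over all 6 libraries. The main model held the genotype alone, and a second added the replicate number as a block. Same-numbered libraries of different genotypes deviated together from their group means (r from 0.869 to 0.907 over the 3 pairs of genotypes), so by this check of the data the numbers pair the samples; the labels do not say what they mark. Blocked values are given throughout. The count tests edgeR 4.0.16 and DESeq2 1.42.0 on recovered reads were alternatives; with the block, edgeR called 2427 genes in KO and 198 in C54Y. The scripts were tested on simulated data. Other alternatives were the pseudocount (0.5 and 10), no filter, TMM factors, and each library left out.

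The 9 members, the gene lists and the naming rule were chosen with earlier results of these data known. The rule named the members, up to 3 genes with the smallest blocked p per list and mutant, and the 6 genes most correlated with the members' mean, of which 1 is not reported here. Genes named outside it are marked as chosen after their values were seen. Symbols absent from the table were looked up among RefSeq synonyms; Mia3 matched no row. Exon lengths came from GENCODE M21 by symbol.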

Additional observations from a re-analysis of the deposited data

Results flagged for a closer look

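In 3 members both mutants moved one way against WT in replicate 1 and the other way in replicate 2. The difference between replicates was not tested, since each replicate holds 1 library per genotype. For Lamc1 the log2 difference from WT was -0.10 (KO) and -0.22 (C54Y) in replicate 1, and 0.17 and 0.040 in replicate 2. For Hspg2 it was -1.26 (KO) and -0.081 (C54Y) in replicate 1, and 0.14 and 0.034 in replicate 2. For Sparc it was -0.60 (KO) and -0.78 (C54Y) in replicate 1, and 0.32 and 0.064 in replicate 2. Of all tested genes, 12.6% had both mutants on one side of WT in replicate 1 and on the other in replicate 2. The signs were the same with TMM factors.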

How the results depend on the processing

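Without the replicate block, 0 members and 0 genes were called in each comparison of genotypes by limma with a pseudocount of 0.5, 2 or 10, without a filter or with TMM factors, and by edgeR. DESeq2 called 235 genes in KO against WT, 28 in C54Y against WT and 3 in KO against C54Y, and 0 members. With the replicate block the counts for these comparisons in that order were 2494, 208 and 29 by limma, 2403, 193 and 22 with a pseudocount of 0.5, 2494, 183 and 21 with 10, 2452, 210 and 32 without a filter, 2433, 196 and 29 with TMM factors, 2427, 198 and 29 by edgeR, and 2522, 479 and 452 by DESeq2. In each of these blocked fits 5 members were called in KO and 1 in C54Y, except that DESeq2 called 4 in C54Y (Lama1, Lamb1, Col4a1 and Col4a2, all lower). TMM factors put 44.8% of the blocked KO calls higher, against 54.6% with the deposited factors.

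With 1 library left out, with or without the block, counts ranged from 0 to 4861 genes and 0 to 6 members in KO, 0 to 1818 and 0 to 5 in C54Y, and 0 to 2831 and 0 to 4 between KO and C54Y. With the block, the KO count against WT was 4036 without KO replicate 1 and 4861 without KO replicate 2, and the C54Y count was 1818 and 1619 without those, 543 without WT replicate 1 and 69 without C54Y replicate 2. Between KO and C54Y it was 913 and 2831 without KO replicates 1 and 2, 825 and 512 without WT replicates 1 and 2, and 7 and 80 without C54Y replicates 1 and 2. A genotype left with 1 library is assumed to vary like the others. Signs of log2 differences turned in these ranges: in KO, Lamc1 -0.60 to 0.67, Nid2 -0.0095 to 1.00, Hspg2 -1.26 to 0.14 and Sparc -0.58 to 0.30; in C54Y, Lamc1 -0.73 to 0.55, Nid1 -0.010 to 0.96, Hspg2 -0.72 to 0.67 and Sparc -0.80 to 0.082. Between KO and C54Y they were Lamb1 -0.38 to 0.16, Lamc1 -0.38 to 0.63, Nid1 -0.13 to 1.37, Nid2 -0.47 to 0.32, Hspg2 -1.21 to 0.14 and Sparc -0.13 to 0.56. Between replicates they were Lamb1 -0.27 to 0.063, Col4a1 -0.67 to 0.13 and Col4a2 -0.42 to 0.52. Lamc1 in KO also turned with TMM factors (-0.053, with and without the block), edgeR (-0.12, and -0.056 with the block) and DESeq2 (-0.017), and Col4a2 between replicates with TMM factors (-0.069) and edgeR (-0.080). The cause was not tested.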
